A study of Lactuca sativa with 36 samples.

Results

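The genes described here are 150 genes of Italian lettuce whose leaf level was similar on day 0 and day 1 of cadmium (Cd) treatment and low on day 5, with and without melatonin. They were chosen by measured leaf values. FPKM, the number of sequenced fragments relative to transcript length and library depth, was added over the isoforms of each of 19584 genes and taken as log2(FPKM + 1). Of the 16800 genes with at least 1 FPKM in 3 leaf libraries, 3686 had a day 5 mean under the day 0 and day 1 means in both treatments, with day 0 and day 1 within 0.5 of each other. The genes were ranked by the smallest of the 4 falls, and the 150 with the largest were taken. Every leaf difference below, over time or between the treatments, is therefore a description of values the choice used and carries no test. The root libraries, which the choice did not use, carry the tests.

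Seedlings of this leafy lettuce (Lactuca sativa, variety ramose Hort.) were watered with dilute nutrient solution for 20 days, then cultivated with or without 1 μmol/L melatonin in the solution, after which both sets received 50 μmol/L CdCl2. The labels of 2 libraries, replicate 2 of LCdM1 and of RCdM1, give 21 days in place of 20. Leaves (L) and roots (R) were sampled on days 0, 1 and 5, which makes 12 groups of 3 libraries, 36 in all. Group names give the tissue, the treatment (Cd for CdCl2 alone, CdM for CdCl2 with melatonin) and the day, as in LCdM5. All groups share the CdCl2 step, and no group without CdCl2 on day 1 or day 5 is among them, so a change over days under Cd cannot be told apart from one of plant age or harvest day. The 3 libraries of a group are called biological repeats.

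Cadmium is a toxic metal that plants take up partly through carriers of iron, zinc and other divalent metals, and melatonin is a small indole that plants make and that is studied for its effect on stress tolerance. Leaf transcript levels also follow the circadian clock, the age of the leaf and its photosynthetic activity. Among processes seen in the genes below, tRNA processing prepares transfer RNAs for translation, the spliceosome removes introns, and isoprenoid synthesis feeds pigments, quinones and hormones.

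Summed FPKM per leaf library ran from 2367209 to 2611849 on day 0, from 1970733 to 2353403 on day 1 and from 1729631 to 2025387 on day 5, so the total itself was lower on the day that defines the choice. Root totals lay between 1259744 and 1426917. After scaling each library by its median ratio, 132 of the 150 genes would still be chosen. The 3 new genes described as light-harvesting antenna proteins, which mark photosynthetic cells, summed to 6551 to 16911 FPKM in leaf libraries and 5.36 to 67.3 in root libraries, which fits the tissue labels. The 2 new genes matched to root tissue by description went the other way, both with the higher mean in leaves. They summed to 9.10 to 15.4 FPKM in leaf libraries and 6.45 to 10.6 in root libraries, so this list did not mark roots. In leaves the antenna sum was 12393 to 16911 in LCd0 and 10946 to 12823 in LCd5, and 14907 to 16132 in LCdM0 and 6551 to 9679 in LCdM5. The 8 new genes described as histones, replication or division proteins, which mark dividing cells, summed to 107 to 158 FPKM in LCd0, 128 to 146 in LCd5, 109 to 115 in LCdM0 and 142 to 156 in LCdM5. The 10 tested new genes described as photosystem, electron carrier or ATP synthase proteins went further, from 56021 to 70444 FPKM in LCd0 and 34982 to 53232 in LCd1 to 22501 to 34200 in LCd5, and from 57366 to 66237 in LCdM0 and 39513 to 52212 in LCdM1 to 17335 to 23225 in LCdM5. The 3 new genes of cuticle and epidermal lipids summed to 20.7 to 30.8 FPKM in LCd0 and 5.66 to 20.6 in LCd5 without overlap, but to 19.3 to 23.7 in LCdM0 and 7.95 to 24.9 in LCdM5. All 3 were higher in roots, with sums of 5573 to 7142 FPKM in RCd0, so this list did not mark leaf epidermis. None of these marker genes is among the 150. The part of these markers in the results was not tested, and in whole leaves fewer cells of a type and less RNA per cell cannot be told apart. In the day 5 roots, replicate 3 of RCd5 correlated at r = 0.962 and 0.965 with replicates 1 and 2 of RCdM5 but at 0.939 and 0.941 with those of its own group, and replicate 3 of RCdM5 at 0.961 and 0.959 with RCd5 against 0.955 and 0.937 with its own (Pearson, across genes, which are not independent replicates). Root counts of day 5 against the earlier days and the calls of named genes in them are given with and without both libraries.

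In leaves under Cd the median day 5 level of the 150 genes was 40.8% of the day 0 level, and with melatonin it was 36.8%. On the log2 scale the median difference between day 5 and day 0 was -1.25 under Cd and -1.40 with melatonin, beside -0.07 and -0.06 over all 16800 genes. Between day 5 and day 1 it was -1.15 and -1.20, beside -0.02 and -0.04 over all genes. From day 0 to day 1 the median was -0.10 and -0.19, where the rule allowed at most 0.5 either way. In the limma fit of the leaf libraries 116 of the 150 genes were called lower between day 0 and day 5 under Cd, beside 11.1% of all genes, and 102 between day 1 and day 5, beside 4.42%. With melatonin the counts were 128 beside 14.8% and 102 beside 8.39%. These counts follow from the choice. Of all leaf genes, 5.48% and 3.39% were higher on day 5 than on day 0 and day 1 under Cd, and 8.11% and 3.83% with melatonin. In 93 of the 150 genes all 6 day 5 libraries lay under all 12 earlier leaf libraries, beside 3.44% of all genes.

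**Figure D1:**
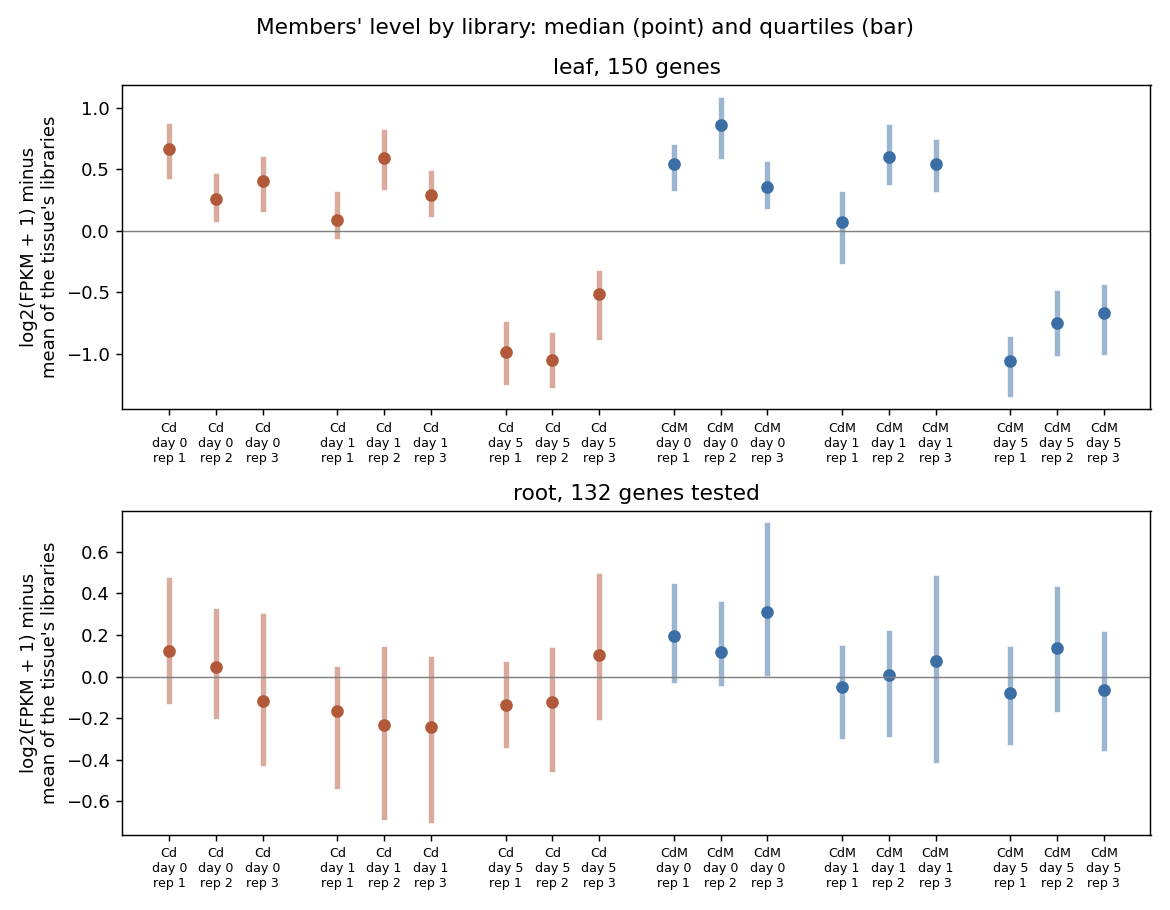
Median (point) and quartiles (bar) over the genes of log2(FPKM + 1) minus each gene's mean over the libraries of the tissue, for each of the 18 leaf libraries (top, 150 genes) and 18 root libraries (bottom, 132 genes tested), with Cd in brown and CdM in blue. Leaf medians lie between 0.07 and 0.86 on days 0 and 1 and between -1.06 and -0.51 on day 5, while root medians stay between -0.24 and 0.31.

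Inside a group, single libraries were high or low over many of the genes at once. Replicate 1 of LCdM1 held the lowest of the 3 values for 119 of the 150 genes, and replicate 2 of LCdM0 the highest for 118. On day 5, replicate 3 of LCd5 was the highest for 110 genes, and replicate 1 of LCdM5 was the lowest for 101. The median coefficient of variation inside a group ran from 20.1% in LCd1 to 29.6% in LCd5, beside 19.0% and 20.5% over all leaf genes. The choice of genes depended on single libraries to the same degree, since 108 to 134 of the 150 would be kept when 1 leaf library is left out.

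The score, the smallest of the 4 falls, ran from 1.88 to 0.83 with a median of 1.00 (log2). Novelgene1947, a new gene without a description, led the list. Its leaf level was 19.8, 16.5 and 12.5 FPKM in LCd0, 10.7, 26.8 and 10.8 in LCd1 and 5.86, 3.47 and 1.55 in LCd5. With melatonin it was 15.2, 13.0 and 13.1 FPKM on day 0, 9.95, 25.1 and 6.73 on day 1 and 1.05, 3.01 and 1.77 on day 5. All day 5 values lay under all earlier ones, and in roots the gene stayed at or below 1.75 FPKM in every library.

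The largest single falls belonged to a pair of reference genes. Lsat_1_v5_gn_7_56240, for which no term is given, read 82.2, 40.5 and 49.5 FPKM in LCd0, 72.7, 61.3 and 52.1 in LCd1 and 6.25, 5.12 and 18.4 in LCd5. Its fall under Cd was 2.55 from day 0 and 2.71 from day 1 (log2), the largest of the 150 in each. Lsat_1_v5_gn_6_50040 carries the term protein folding, the work of chaperones and related enzymes. It read 220, 114 and 149 FPKM in LCd0 and 36.1, 22.7 and 63.1 in LCd5. With melatonin it went from 170, 239 and 164 FPKM in LCdM0 and 91.6, 230 and 164 in LCdM1 to 9.76, 22.9 and 26.2 in LCdM5, a fall of 3.31 from day 0 and 2.99 from day 1, the largest of the 150 in each. Its 2 day 5 groups overlapped, and in roots it was between 41.5 and 93.4 FPKM with no call in any comparison.

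Other genes at the top of the list differed in how steady they were. Lsat_1_v5_gn_6_2441, with the terms copper ion binding and hydrolase activity on glycosyl bonds, read 46.8, 29.2 and 30.7 FPKM in LCd0, 18.9, 42.5 and 27.3 in LCd1 and 4.15, 7.30 and 8.54 in LCd5. Lsat_1_v5_gn_5_190460, with no term, was steadier, at 96.2, 110 and 118 FPKM in LCd0, 104, 125 and 99.1 in LCd1 and 23.6, 41.8 and 51.5 in LCd5. Lsat_1_v5_gn_5_146201, also without a term, spread most inside its groups, with 14.0, 43.4 and 9.48 FPKM in LCdM0, 3.12, 40.2 and 21.9 in LCdM1 and 2.06, 7.47 and 1.84 in LCdM5, so that its day 1 and day 5 libraries overlapped with melatonin. The others among the 12 largest scores were Lsat_1_v5_gn_2_55601 (translation), Lsat_1_v5_gn_8_137141, Lsat_1_v5_gn_6_13521 (phosphorylation), Lsat_1_v5_gn_9_34440, Novelgene3073 and Novelgene2921. Their day 0 means ran from 14.6 FPKM (Novelgene2921) to 268 FPKM (Lsat_1_v5_gn_8_137141) under Cd and their day 5 means from 4.32 to 82.9. The terms of Lsat_1_v5_gn_8_137141 include eggshell formation and oogenesis, which are animal terms and give no function for a lettuce leaf.

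At the threshold the values were close. The last member, Lsat_1_v5_gn_7_83220, with the terms metal ion transport and transmembrane transport, had a score of 0.8330 and mean levels of 131 FPKM in LCd0, 96.8 in LCd1 and 55.9 in LCd5. The first gene left out, Lsat_1_v5_gn_1_111141, had a score of 0.8320 and means of 70.2, 76.3 and 27.4 FPKM. The next one out, Lsat_1_v5_gn_8_64840, scored 0.8290 with 1270 FPKM in LCd0 and 546 in LCd5.

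Of the 150 genes, 14 were new genes and 63 carried a GO or KEGG term. Terms were at hand only for genes that the study had called changed between some of these groups, 15.9% of all leaf genes, so neither the terms nor counts over a term are independent evidence of a fall. Only 3 of the 14 new genes have a protein description, and 85 of the 150 have neither a term nor a description. Novelgene0995, described as a cyclase-associated protein, a regulator of actin in other plants, read 42.6, 34.0 and 37.4 FPKM in LCd0 and 13.2, 12.3 and 22.2 in LCd5. Novelgene0492, described as a tonoplast dicarboxylate transporter, which moves malate into the vacuole in Arabidopsis, read 120, 140 and 69.9 FPKM in LCd0, 163, 157 and 117 in LCd1 and 51.6, 26.2 and 80.7 in LCd5, with an overlap between day 0 and day 5. Novelgene0873, described only as a hypothetical protein, went from a mean of 85.6 ± 20.5 FPKM (SD, n = 3) in LCd0 to 37.6 ± 14.6 in LCd5.

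The most abundant members were leaf genes of very high level. Lsat_1_v5_gn_8_101401 carries the terms tRNA processing, flavin adenine dinucleotide binding, indole-3-glycerol-phosphate synthase activity and vitamin B6 metabolic process. It read 13228, 11569 and 13200 FPKM in LCd0, 8979, 9205 and 8949 in LCd1 and 2997, 2700 and 5349 in LCd5. With melatonin it read 11765, 13731 and 11272 FPKM on day 0, 10416, 10949 and 12142 on day 1 and 3122, 3616 and 6286 on day 5. Replicate 3 was the highest of the day 5 libraries in both treatments and still under every earlier library. In roots the gene was at 142 to 280 FPKM. Lsat_1_v5_gn_8_37801, without a term, followed with 7563, 7493 and 7799 FPKM in LCd0 and 3243, 2839 and 3048 in LCd5. It was also high in roots, at 2666 to 4490 FPKM, where no comparison called it. Lsat_1_v5_gn_8_13541, with the term transition metal ion binding, read 6324, 6703 and 5096 FPKM in LCd0 and 1208, 1157 and 2839 in LCd5, and no more than 24.7 FPKM in any root library.

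**Figure D2:**
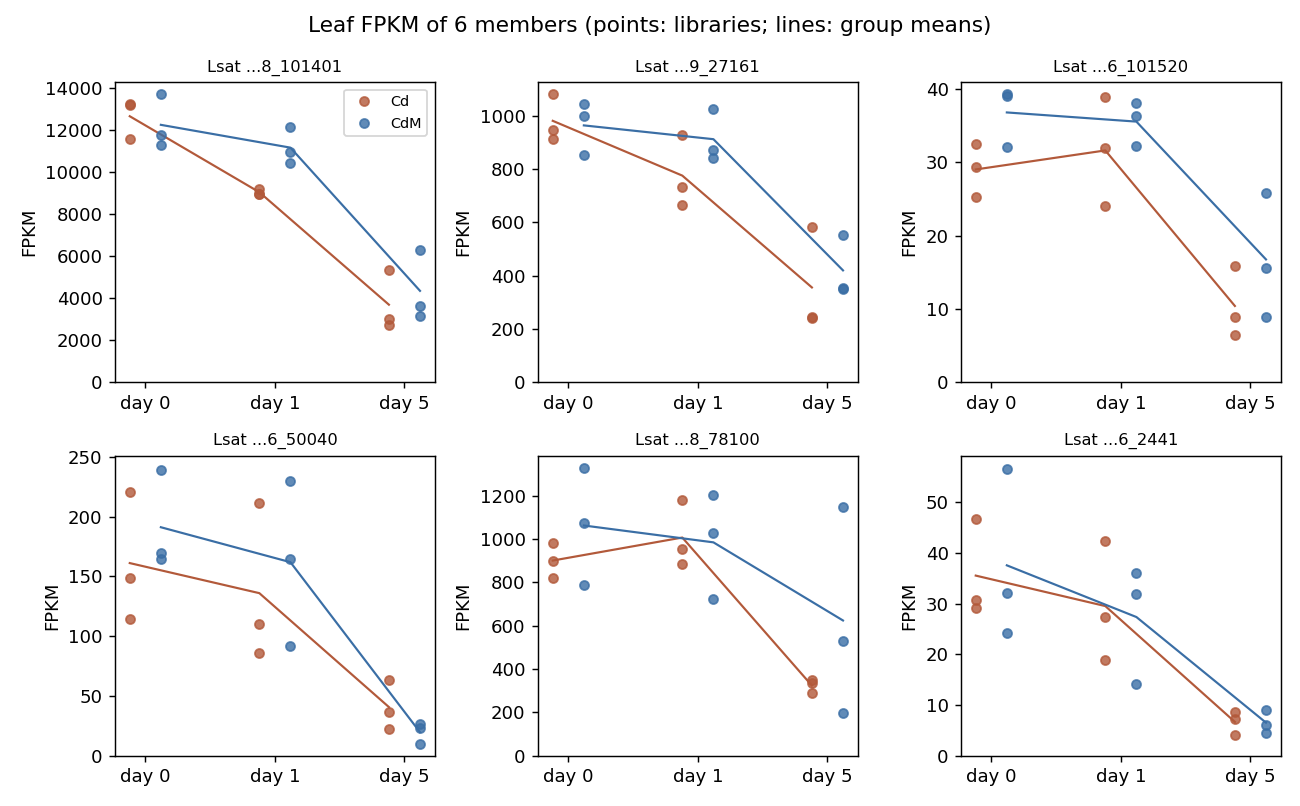
FPKM in each leaf library (points) and group means (lines) on days 0, 1 and 5 for 6 of the 150 genes, with Cd in brown and CdM in blue and each vertical axis starting at 0. Day 5 points lie low in all 6 panels, as the choice requires, and Lsat_1_v5_gn_8_78100 keeps 1 high CdM library of 1146 FPKM on day 5.

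Genes with terms of RNA processing were among the 150. The study's term tRNA processing covers 24 leaf genes, of which 15 were called lower and 0 higher between day 0 and day 5 under Cd, with a median difference of -1.02 (log2), and 13 lower and 0 higher with melatonin, with a median of -0.80. Of these 24 genes, 4 are among the 150. Besides Lsat_1_v5_gn_8_101401 they are Lsat_1_v5_gn_3_70920, Lsat_1_v5_gn_2_92000 and Lsat_1_v5_gn_2_11881. Lsat_1_v5_gn_3_70920 read 53.3, 53.9 and 54.3 FPKM in LCd0 and 30.8, 17.1 and 27.2 in LCd5, and Lsat_1_v5_gn_2_92000 read 31.5, 26.9 and 25.2 in LCd0 and 11.6, 11.2 and 17.8 in LCd5, each without overlap of these groups. The term rRNA processing, with 19 leaf genes, had 1 lower and 0 higher from day 0 to day 5 under Cd and 6 lower and 0 higher from day 1, and holds 1 of the 150.

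Lsat_1_v5_gn_2_11881, which also carries terms of RNA methylation, was the member whose treatments differed most on day 5. It read 143, 333 and 133 FPKM in LCd0, 79.3, 220 and 262 in LCd1 and 33.2, 51.2 and 44.7 in LCd5. With melatonin it read 270, 459 and 578 on day 0, 329, 559 and 312 on day 1 and 130, 191 and 406 on day 5. The treatments did not overlap on day 1 or day 5 but did on day 0, and with melatonin 1 day 5 library lay inside the range of day 1. In roots it went from 504, 579 and 670 FPKM in RCd0 to 75.3, 342 and 182 in RCd1, a fall of 1.79 ± 0.41 (log2, SE, limma adjusted p = 0.014), with an adjusted p of 0.055 without replicate 3 of RCd0. The choice used the leaf values of both treatments, so the comparisons of treatments in leaves that follow are descriptions and not tests of the 150 genes. Without overlap between LCd5 and LCdM5 there were 12 of the 150 genes, 8.0%, beside 12.4% of all leaf genes. In the limma fit 0 of the 150 genes differed between LCdM5 and LCd5 at an adjusted p under 0.05, with 12 at an unadjusted p under 0.05, beside 0.0536% of all genes lower and 0.0238% higher. The fall from day 0 was larger with melatonin in 94 of the 150 genes, 62.7%, beside 50.7% of all genes. In 119 genes the 2 falls were within 0.5 of each other (log2), 79.3% beside 73.5%. The leaf mean was higher with melatonin than without it in 111 genes on day 0, 74.0% beside 50.9%. On day 5 this held for 82 genes, 54.7% beside 48.1%. On day 0 the libraries of LCd0 and LCdM0 did not overlap in only 6 of the 150 genes, beside 1855 of all 16800 leaf genes. The limma fit called 0 of the 150 genes between LCdM0 and LCd0, with 3 at an unadjusted p under 0.05. The part of single high or low libraries in the count of 111 was not tested.

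The 2 members with the term Spliceosome, Lsat_1_v5_gn_8_78100 and Lsat_1_v5_gn_8_78141, are neighbours in the order of identifiers. Lsat_1_v5_gn_8_78100 read 820, 980 and 900 FPKM in LCd0, 953, 1180 and 885 in LCd1 and 335, 347 and 287 in LCd5. Lsat_1_v5_gn_8_78141 read 273, 274 and 309 FPKM in LCd0, 368, 449 and 339 in LCd1 and 114, 126 and 102 in LCd5. With melatonin replicate 2 of day 5 stood high in both, at 1146 FPKM beside 197 and 528 in the first and at 354 beside 69.3 and 161 in the second. Their levels had a Pearson r of 0.982 over the 18 leaf libraries and 0.854 over the 18 root libraries, which describes libraries that share depth and processing, and reads shared between near-identical copies cannot be told apart here. Of the 13 leaf genes under the term, 6 were called lower and 0 higher from day 0 to day 5 under Cd (median -0.55, log2) and 5 lower and 0 higher with melatonin (median -0.65). The other neighbouring pairs, named after their values were seen, were Lsat_1_v5_gn_7_88001 with Lsat_1_v5_gn_7_88020 and Lsat_1_v5_gn_9_26860 with Lsat_1_v5_gn_9_27161, with r = 0.980 and 0.935 in leaves but -0.643 and -0.065 in roots.

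Metal transport, the clock and isoprenoid synthesis were also among the members' terms. Lsat_1_v5_gn_9_27161, with the term ferrous iron transport, read 948, 913 and 1084 FPKM in LCd0, 929, 732 and 667 in LCd1 and 243, 241 and 582 in LCd5. With melatonin it read 1043, 999 and 852 on day 0, 1027, 871 and 840 on day 1 and 351, 354 and 553 on day 5, so that all 6 day 5 libraries were under all 12 earlier ones. Of 8 leaf genes with the term iron ion transport, 3 were called lower and 0 higher from day 0 to day 5 under Cd, and 5 lower and 0 higher with melatonin. Lsat_1_v5_gn_6_101520, the one member with the KEGG term Circadian rhythm - plant, read 25.3, 29.3 and 32.5 FPKM in LCd0, 38.9, 24.1 and 31.9 in LCd1 and 6.38, 8.89 and 15.9 in LCd5. Of the 8 leaf genes with that term, 4 were lower and 1 higher from day 0 to day 5 under Cd, and 5 lower and 0 higher with melatonin. Lsat_1_v5_gn_5_126281, with terms of isoprenoid and cofactor synthesis, read 1717, 1359 and 1690 FPKM in LCd0 and 462, 419 and 946 in LCd5, and between 9.24 and 17.9 FPKM in roots.

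Term lists of photosynthesis, many of whose genes were called lower on day 5 than on day 0, hold none of the 150 genes. Of 27 leaf genes with the GO term photosynthesis, 18 were lower and 0 higher from day 0 to day 5 under Cd (median -0.74, log2) and 1 lower and 0 higher from day 1 to day 5 (median -0.04). With melatonin 22 were lower and 0 higher from day 0 (median -1.10) and 14 lower and 0 higher from day 1 (median -0.60). Of 17 genes with the term Photosynthesis - antenna proteins, 9 were lower and 0 higher from day 0 under Cd and 1 lower and 0 higher from day 1. With melatonin 14 were lower and 0 higher from day 0, and 13 lower and 1 higher from day 1. The term protein folding, which holds 1 member, had 12 of 19 genes lower and 0 higher from day 0 and 7 lower and 0 higher from day 1 under Cd, and 13 and 9 lower and 0 higher with melatonin.

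The isoform values are those the choice was made on, so their course is a description too. The 150 genes have 417 listed isoforms, of which 309 reached 1 FPKM in 3 leaf libraries, and 281 of these had a day 5 mean under the day 0 and day 1 means in both treatments. In 69 genes only 1 isoform passed, so its fall is that of the gene. Of the 81 genes with more than 1 such isoform, all of them were lower in 60. In 145 genes the leading isoform on day 0 also led on day 5. The 5 exceptions, named after their values were seen, were Lsat_1_v5_gn_8_101401, Lsat_1_v5_gn_3_49900, Lsat_1_v5_gn_8_102821, Lsat_1_v5_gn_4_3340 and Novelgene2634. The leading isoform of Lsat_1_v5_gn_4_3340 went from 54.4% to 24.0% of the gene's level, and that of Lsat_1_v5_gn_8_101401 from 53.2% to 49.2%.

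The 150 genes stood above the other leaf genes in level and were mostly leaf-rich on day 0. Their median in LCd0 was 73.7 FPKM, beside 18.2 over all leaf genes, and 9 were at 1000 FPKM or more, 6.0% beside 2.11%. A low gene cannot reach a high score on the log2(FPKM + 1) scale, so the level is partly set by the choice. The leaf to root comparison uses the same LCd0 level, so it is partly set by the choice too and carries no test. On day 0 under Cd, 56 of the 150 were at least 10 times higher in leaves than in roots, 37.3% beside 11.2%, and 29 were higher in roots, 19.3% beside 48.9%. The median root to leaf difference was -1.95 (log2), beside -0.02. In 16 genes every root group mean was under 1 FPKM.

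**Figure D3:**
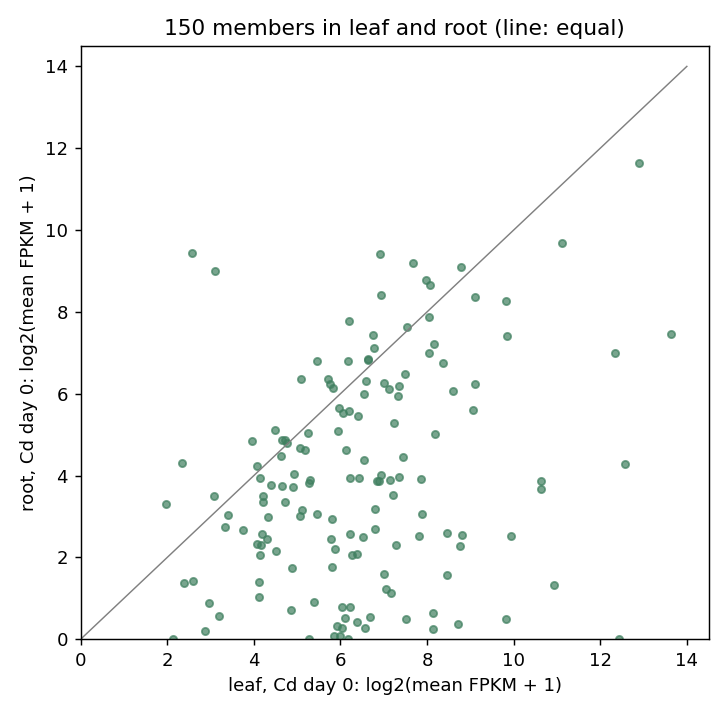
Mean level of each of the 150 genes in roots (vertical) against leaves (horizontal) on day 0 under Cd, both as log2(mean FPKM + 1), with a line of equal levels. Most points lie under the line, and 29 genes have the higher mean in roots. The leaf level shown was used in the choice.

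A pair of members had a root mean at least 10 times the leaf mean over all libraries. Novelgene0077 was above 0 in 4 of the 18 leaf libraries, at 14.8, 27.2, 15.3 and 20.3 FPKM in 1 library each of LCd0, LCd1, LCdM0 and LCdM1, so its place on the list rests on those 4 libraries, and it was listed at 0 in all others, those of day 5 included. Its root mean was 586 FPKM. Lsat_1_v5_gn_7_21520 averaged 7.14 FPKM in leaves and 215 in roots. The 50 genes of highest root level whose leaf mean was under 1% of it had a median leaf level of 0.378 to 0.875% of the root level in LCd0, 0.467 to 0.508% in LCdM0, 0.231 to 0.494% in LCd5 and 0.126 to 0.223% in LCdM5. One of these 50 was among the 150, Novelgene0077. Whether root RNA in leaf libraries had a part in its pattern was not tested.

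In roots 132 of the 150 genes passed the filter of 1 FPKM in 3 root libraries and were tested with all 17227 root genes. From day 0 to day 5 under Cd, 4 of the 132 were lower, 3.03% beside 2.98% of all genes, and 0 were higher, beside 2.5%. With melatonin 2 were lower, 1.52% beside 1.04%, and 1 was higher, 0.758% beside 2.04%. From day 1 to day 5 under Cd, 2 were lower beside 1.13% and 5 were higher, 3.79% beside 1.42%, and with melatonin 1 was lower beside 0.104% and 1 higher beside 0.598%. The median root difference from day 0 to day 5 was -0.04 under Cd and -0.20 with melatonin (log2), beside 0.01 and -0.02 over all root genes. The shares lower on day 5 in roots from day 0 were thus near those of all genes in both treatments. The difference between CdM and Cd in the day 0 to day 5 change was called in 0 of the 132 genes by limma, with 8 at an unadjusted p under 0.05, beside 0.0% of all genes in either direction. Without replicate 3 of RCd5 and of RCdM5 the day 0 to day 5 counts under Cd and with melatonin were 4 and 1 genes in either direction, and the day 1 to day 5 counts were 4 and 0. Without replicate 3 of RCdM1 or of RCdM5 the day 0 to day 5 count under Cd was 7 in place of 4, and that with melatonin was 1 in place of 3 without replicate 1 or 2 of RCdM0 or replicate 1 or 3 of RCdM5. The day 1 to day 5 count under Cd was 4 in place of 7 without replicate 3 of RCd1 or of RCd5 and 3 without replicate 2 of RCd5, and that with melatonin was 0 without replicate 2 or 3 of RCdM1 or replicate 1 or 3 of RCdM5. The difference between the treatments was called in 1 gene without replicate 2 of RCd5. The share of bases at Q30, a measure of base quality in the study's sequencing table, was also used as a covariate. In that fit 0 of the 132 genes were called in any day 5 root comparison, so the calls named below on day 5 end there. Few of all 17227 root genes were called in it either. From day 0 these were 17 lower and 5 higher under Cd and 0 either way with melatonin. From day 1 they were 3 lower and 0 higher under Cd and 0 lower and 1 higher with melatonin.

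From day 0 to day 1 the roots did move. Under Cd 20 of the 132 genes were lower, 15.2% beside 4.89%, and 2 were higher, 1.52% beside 4.46%, with a median difference of -0.24 (log2) beside 0.00. With melatonin 6 were lower, 4.55% beside 0.842%, and 0 were higher, beside 0.372%, and 5 of these 6 were also among the 20. The change from day 0 to day 1 differed between the treatments in 0 of the 132 genes by limma, with 11 at an unadjusted p under 0.05, beside 0.0% of all genes in either direction. With the Q30 share as a covariate the counts were 17 under Cd and 0 with melatonin. Over all root genes that fit called 622 lower and 516 higher under Cd and 10 lower and 3 higher with melatonin. The count of the 132 genes under Cd was 14 without replicate 1 or replicate 3 of RCd0. With melatonin their count was 0 without replicate 3 of RCdM1, 1 without replicate 1 or 3 of RCdM0 and 2 without any other library of RCdM0 or RCdM1. Over all root genes the calls under Cd went from 843 lower and 769 higher to 535 and 612 without replicate 1 of RCd0. With melatonin they went from 145 lower and 64 higher to 32 and 33 without replicate 3 of RCdM1.

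**Figure D4:**
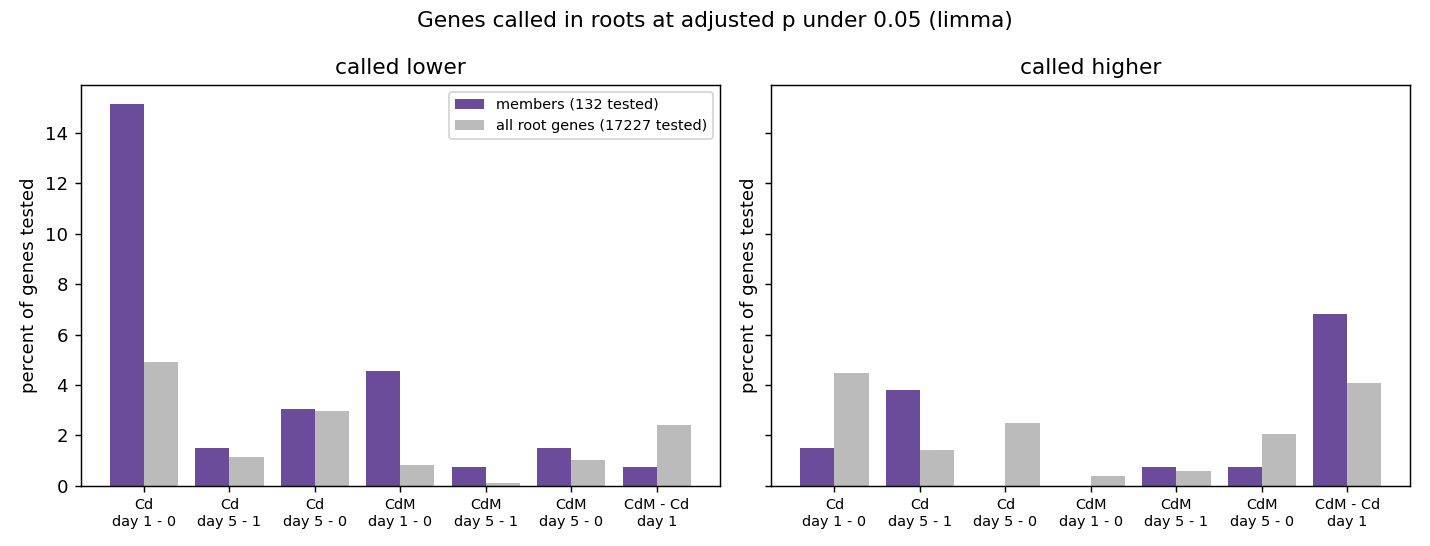
Percent of genes called lower (left) and higher (right) in 7 root comparisons at an adjusted p under 0.05, for the 132 genes of the list tested in roots (purple) and all 17227 root genes (grey). The bar for genes lower on day 1 under Cd reaches 15.2% for the list and 4.89% for all genes, while the bars for lower on day 5 against day 0 under Cd are at 3.03 and 2.98%.

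Lsat_1_v5_gn_6_101520, the gene with the circadian term, was one of the 4 that were also lower in roots on day 5. It read 10.6, 12.5 and 13.1 FPKM in RCd0, 6.25, 5.65 and 6.72 in RCd1 and 3.53, 2.78 and 2.40 in RCd5, and the 3 groups did not overlap. The change from day 0 to day 5 was -1.75 ± 0.28 (log2, SE, limma adjusted p = 0.0033). With melatonin it read 11.6, 5.40 and 5.78 FPKM on day 0 and 3.34, 2.64 and 4.97 on day 5, a difference of -0.85 ± 0.28 that did not pass (limma adjusted p = 0.13), and the difference between the treatments did not pass either (adjusted p = 0.60). The adjusted p under Cd was 0.12 with the Q30 share as a covariate and 0.014 without replicate 3 of both day 5 groups.

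Lsat_1_v5_gn_2_23920, without a term, was lower on day 5 against both earlier days in roots. It read 47.1, 45.9 and 46.4 FPKM in RCd0, 56.9, 58.8 and 71.4 in RCd1 and 16.4, 14.3 and 17.6 in RCd5. Its root level under Cd was thus low only on day 5, with every day 1 library above every day 0 library. The changes were -1.48 ± 0.27 from day 0 and -1.89 ± 0.27 from day 1 (log2, SE, limma adjusted p = 0.0065 and 0.0052, and 0.018 and 0.016 without replicate 3 of both day 5 groups). With melatonin the gene was not called on day 5 against either earlier day. Lsat_1_v5_gn_3_73580, with terms of transcription factor activity and phenylpropanoid synthesis, fell earlier, from 565, 581 and 912 FPKM in RCd0 to 260, 252 and 217 in RCd1 and 290, 228 and 186 in RCd5. Its change was -1.46 ± 0.23 on day 1 and -1.53 ± 0.23 on day 5 (log2, SE, limma adjusted p = 0.0018 and 0.0021, the latter 0.011 without replicate 3 of both day 5 groups), and with melatonin it was -1.18 ± 0.23 on day 1 (adjusted p = 0.023). The last of the 4, Lsat_1_v5_gn_4_99780, was at 4.87, 2.16 and 5.11 FPKM in RCd0 and 1.04, 0.690 and 0.677 in RCd5, with an adjusted p of 0.040 in limma that was lost in 10 of 23 other settings and was 0.069 without replicate 3 of both day 5 groups.

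Genes that fell in roots on day 1 had largely returned by day 5 in 3 cases. Novelgene3073 read 134, 118 and 77.2 FPKM in RCd0, 19.4, 27.7 and 30.0 in RCd1 and 81.6, 90.4 and 72.7 in RCd5. It fell by 2.04 ± 0.32 and then rose by 1.65 ± 0.32 (log2, SE, limma adjusted p = 0.0018 and 0.017). Lsat_1_v5_gn_6_5661, named after its values were seen and with the term transporter activity, read 482, 462 and 685 FPKM in RCd0, 168, 195 and 177 in RCd1 and 334, 500 and 326 in RCd5. It fell by 1.57 ± 0.20 and rose by 1.07 ± 0.20 (adjusted p = 4.1e-04 and 0.013), and with melatonin it fell by 1.08 ± 0.20 on day 1 (adjusted p = 0.018). Lsat_1_v5_gn_6_2441, the copper ion binding gene, read 28.9, 24.8 and 17.3 FPKM in RCd0, 10.7, 12.5 and 9.26 in RCd1 and 19.3, 27.0 and 26.7 in RCd5, and RCd1 lay under both other groups. It fell by 1.04 ± 0.18 and rose by 1.09 ± 0.18 (log2, SE, limma adjusted p = 0.0035 and 0.0084). With the Q30 share as a covariate the falls on day 1 under Cd of these 3 genes were still called, while their later rises had adjusted p from 0.052 to 0.21. Without replicate 3 of both day 5 groups the rises had an adjusted p of 0.057 for Novelgene3073, 0.033 for Lsat_1_v5_gn_6_5661 and 0.036 for Lsat_1_v5_gn_6_2441. None of the 3 rises was called in the fit of RCd1 and RCd5 alone, which has fewer libraries. That fit called 0 of 122 members higher, beside 16 of 16379 root genes.

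The largest root fall on day 1 was that of Novelgene0077, from 580, 818 and 683 FPKM in RCd0 to 191, 40.7 and 29.2 in RCd1, a change of -3.46 ± 0.74 (log2, SE, limma adjusted p = 0.0094). On day 5 its replicate 3 libraries stood apart in both treatments, at 912 beside 222 and 190 FPKM in RCd5 and at 194 beside 568 and 527 in RCdM5. Lsat_1_v5_gn_7_21520 went from 354, 467 and 719 FPKM to 144, 41.3 and 29.4, a change of -3.11 ± 0.72 (adjusted p = 0.014), which had an adjusted p of 0.056 to 0.067 without replicate 3 of RCd0 or replicate 2 or 3 of RCd1. In the other direction Lsat_1_v5_gn_8_102821, with the terms iron ion homeostasis and oxidoreductase activity, rose in roots on day 1 while the rule held its leaf level near that of day 0. It read 13.4, 17.6 and 14.3 FPKM in RCd0, 47.9, 46.3 and 40.8 in RCd1 and 17.3, 15.1 and 22.4 in RCd5. The rise was 1.52 ± 0.20 and the later fall -1.27 ± 0.20 (log2, SE, limma adjusted p = 6.6e-04 and 0.0075). With melatonin its root level was already 52.0, 34.4 and 40.3 FPKM on day 0 and 40.6, 65.0 and 59.5 on day 1, and the fall to 25.8, 28.2 and 20.5 on day 5 was -1.10 ± 0.20 (adjusted p = 0.029). That call was lost in 6 of 23 other settings, with adjusted p from 0.077 to 0.33, and without replicate 3 of both day 5 groups it was 0.11, where the fall under Cd kept an adjusted p of 0.015. The fit of RCdM1 and RCdM5 alone, which is not among the 23, called 0 of 127 members.

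With melatonin a few other members moved in roots. Lsat_1_v5_gn_9_21641 carries terms of fatty acid and lipid synthesis and a term of the plasma membrane. It read 2.73, 3.18 and 3.04 FPKM in RCdM0, 3.54, 1.75 and 1.54 in RCdM1 and 9.49, 7.72 and 8.99 in RCdM5, against the direction of its leaf level. The rise was 1.29 ± 0.28 from day 0 and 1.62 ± 0.28 from day 1 (log2, SE, limma adjusted p = 0.022 and 0.025). These calls were lost in 7 and 6 of 23 other settings, among them without replicate 1 or 3 of RCdM5, and without replicate 3 of both day 5 groups the adjusted p was 0.066 and 0.10. Lsat_1_v5_gn_2_49361, without a term, read 436, 428 and 476 FPKM in RCdM0, 240, 214 and 255 in RCdM1 and 204, 235 and 222 in RCdM5. It was already lower on day 1 by 0.92 ± 0.18 and on day 5 by 1.02 ± 0.18 (adjusted p = 0.027 and 0.0087). The day 1 call was lost without any 1 of the 6 libraries of RCdM0 and RCdM1 and with the Q30 share, with adjusted p from 0.067 to 0.13, and without replicate 3 of both day 5 groups the day 5 call had 0.016. All RCdM0 libraries lay above all later ones. Lsat_1_v5_gn_9_26661, also without a term, went from 15.01, 9.65 and 13.7 FPKM in RCdM0 to 2.53, 2.94 and 0.155 in RCdM1 with an adjusted p of 0.049, and that call was lost in 19 of 23 other settings. Lsat_1_v5_gn_7_88001 went from 53.6, 53.7 and 32.3 FPKM in RCdM0 to 20.3, 8.38 and 17.8 in RCdM5 with an adjusted p of 0.045, lost in 17 of 23 and at 0.053 without replicate 3 of both day 5 groups. Fits of the compared groups alone are not among the 23. With melatonin they called 0 members from day 0 to day 1, 0 from day 1 to day 5, and 1 lower and 1 higher from day 0 to day 5.

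**Figure D5:**
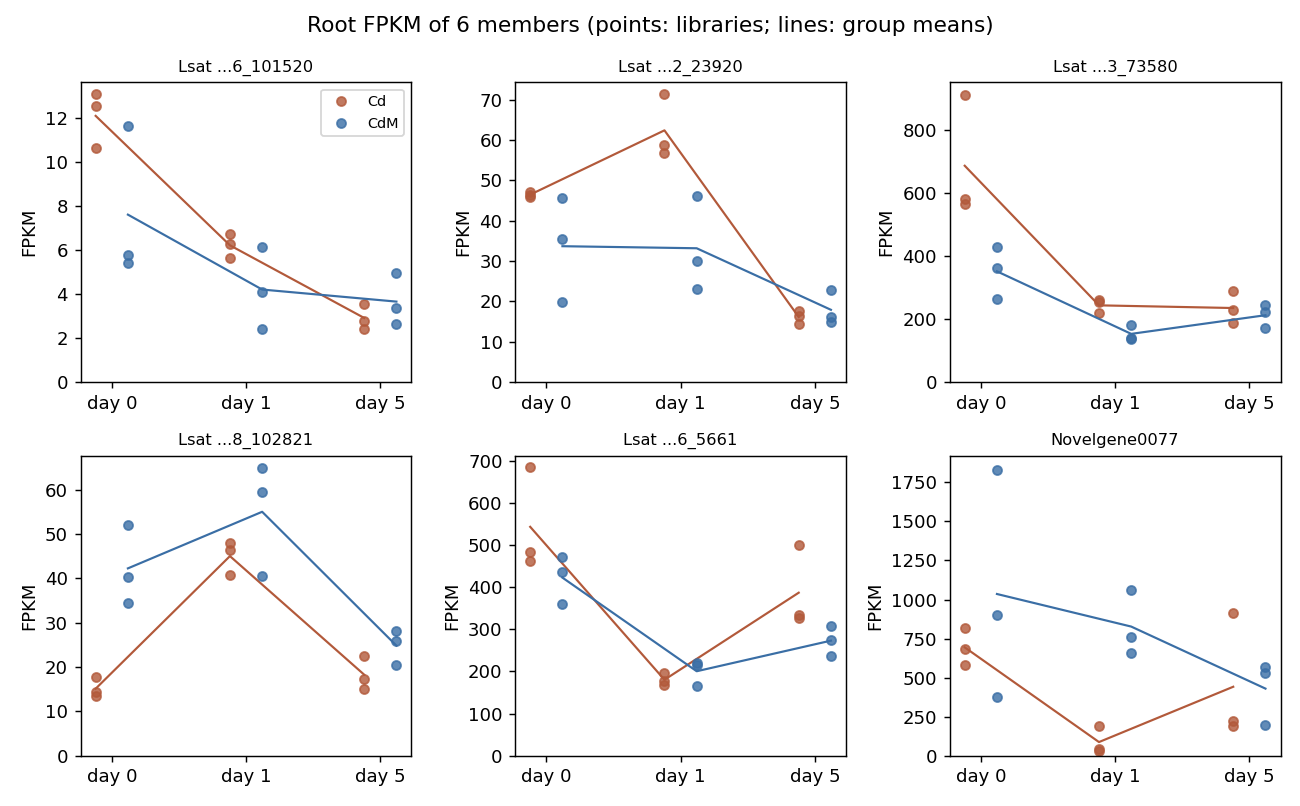
FPKM in each root library (points) and group means (lines) on days 0, 1 and 5 for 6 of the 150 genes, with Cd in brown and CdM in blue and each vertical axis starting at 0. Under Cd, Lsat_1_v5_gn_6_101520 goes down over both intervals, Lsat_1_v5_gn_2_23920 only after day 1, and Lsat_1_v5_gn_8_102821 peaks on day 1 with 40.8 to 47.9 FPKM.

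Between roots with and without melatonin on day 0, 2 of the 132 genes were higher with melatonin, 1.52% beside 0.168%, and 0 lower beside 0.0755%. They were Lsat_1_v5_gn_8_102821 and Lsat_1_v5_gn_2_49361, with adjusted p of 0.036 and 0.047 in limma that were lost in 11 and 14 of 23 other settings. On day 5 limma called 0 genes, with 6 at an unadjusted p under 0.05, beside 0.0% of all genes either way. On day 1, 9 of the 132 genes were higher with melatonin, 6.82% beside 4.07%, and 1 was lower, 0.758% beside 2.43%. Novelgene0077 was the highest of them, with 758, 1062 and 661 FPKM in RCdM1 beside 191, 40.7 and 29.2 in RCd1, a difference of 3.70 ± 0.74 (log2, SE, limma adjusted p = 0.031). Lsat_1_v5_gn_7_80360, with the term Phenylpropanoid biosynthesis, read 23.7, 31.1 and 11.2 FPKM in RCdM1 and 4.70, 3.96 and 1.68 in RCd1, a difference of 2.33 ± 0.63 (adjusted p = 0.044). Novelgene2921 read 129, 187 and 301 beside 53.4, 12.9 and 24.2. The one lower gene, Lsat_1_v5_gn_9_49980, read 14.8, 13.3 and 14.0 FPKM beside 19.2, 20.1 and 17.5. These counts rested on single libraries, since 0 genes were called without replicate 2 or 3 of RCd1 or replicate 2 or 3 of RCdM1, 5 without replicate 1 of RCd1, 6 without replicate 1 of RCd0 or of RCdM5, 18 without replicate 1 of RCdM1 or replicate 3 of RCdM5, 19 without replicate 2 of RCdM5 and 22 without replicate 3 of RCd5. Without replicate 3 of both day 5 groups the count was 25, and with the share of bases at Q30 as a covariate it was 0. The calls over all root genes moved as well. They were 418 lower and 701 higher in the full fit, and 1 and 1 without replicate 2 of RCd1. Without replicate 3 of RCd5 they were 859 and 1102, without replicate 3 of both day 5 groups 1002 and 1264, and with the Q30 share 1 and 0.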

How the data were processed

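The deposited values are FPKM per isoform, which the authors computed from paired-end reads aligned to their long-read reference transcripts. The submitters' processing notes name Bowtie2 2.0.6 and TopHat2 2.0.12, and the study's methods name HTSeq counts per gene. For the step from reads to isoform values, the tool was not given in the sources used here. Read counts are not in the table, so no counting interval was computed, and the spread between libraries stands for the precision.

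FPKM of the 59872 isoforms was summed over 19584 genes. Genes with at least 1 FPKM in 3 libraries of a tissue were tested as log2(FPKM + 1), with a pseudocount of 1, which understates changes of low genes. limma 3.58.1 under R 4.3.3 (lmFit, contrasts.fit, eBayes with a trend) was fitted to the 18 root or 18 leaf libraries with 1 mean per group, with Benjamini-Hochberg adjustment over all genes of the fit and a threshold of 0.05. It was tested on simulated data. Tables used Python 3.11.15, pandas 2.3.3 and numpy 2.4.6.

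The members, lists and tests were chosen with earlier results of these data known. Named genes are the 12 with the largest score, up to 4 of each term list, up to 3 called each way in a root comparison, the genes at the threshold, the 3 of highest LCd0 level and those with a description. GO and KEGG terms come from the study's enrichment tables, using complete cells for counts of lists. Identifiers matched no entry of the gene table at hand, so gene names and sequences were not used here. Keyword lists could be matched only to the descriptions of 876 new genes.

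Alternatives were a pseudocount of 0.1, no filter, a filter of 6 libraries for the choice, scaling by median ratio, the share of bases at Q30 (from the study's sequencing table) as a covariate, fits restricted to the compared groups, a block for replicate numbers, and leave-one-out of every library. Leaving out replicate 3 of both day 5 root groups was added after seeing the data.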

Additional observations from a re-analysis of the deposited data

How the results depend on the processing

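The values limit what can be said: 3 libraries a group, no counts, and no group without CdCl2 on later days. Counts below are of members called in either direction. With Q30 as a covariate the day 5 against day 0 counts went from 4 to 0 under Cd and from 3 to 0 with melatonin, the day 5 against day 1 counts from 7 to 0 and from 2 to 0, the day 1 against day 0 count with melatonin from 6 to 0, and the melatonin count on day 1 from 10 to 0, while day 1 against day 0 under Cd gave 17 in place of 22. Calls over all root genes dropped in that fit as well, to 17 lower and 5 higher for day 5 against day 0 under Cd. They were 1 lower and 0 higher for melatonin on day 1, and 622 lower and 516 higher for day 1 against day 0 under Cd. The covariate uses 1 more term in the same 18 libraries, and the cause was not tested. In fits of the compared groups alone, which have fewer libraries, the counts were 1 for day 5 against day 1 under Cd, 13 for day 1 against day 0 under Cd, 0 for both day 5 against day 1 and day 1 against day 0 with melatonin, and 17 for melatonin on day 1. Scaling by median ratio gave 7 for day 5 against day 0 under Cd. Without replicate 3 of both day 5 root groups, added after seeing the data, the counts were 4 for day 5 against day 1 under Cd, 1 and 0 for day 5 against day 0 and against day 1 with melatonin, and 25 for melatonin on day 1. The cause of these moves was not tested.

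With 1 library left out the counts ran from 3 to 7 for day 5 against day 0, from 3 to 7 for day 5 against day 1 and from 14 to 25 for day 1 against day 0 under Cd. With melatonin they ran from 1 to 4, from 0 to 2 and from 0 to 7. They ran from 0 to 22 for melatonin on day 1 and from 0 to 1 for the difference between the treatments. For melatonin on day 1 the calls over all root genes ran from 1 lower and 1 higher to 859 lower and 1102 higher. Of the 150 genes, 126 would be kept with a pseudocount of 0.1, 149 with a filter of 6 libraries, 150 with none, 132 after scaling, and 108 to 134 with 1 leaf library left out.

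Replicate numbers were not treated as a pairing in the main fit. Whether leaf and root libraries of the same group and number came from the same plants was not tested. Deviations from group means of same-numbered root libraries had a median r of 0.00 (-0.41 to 0.35 over 45 pairs), and in 1 of 15 pairs of root groups were all 3 over 0.1. With the replicate number as a block the counts were 3, 5 and 18 under Cd for day 5 against day 0, day 5 against day 1 and day 1 against day 0, then 2, 2 and 4 with melatonin, 8 for melatonin on day 1 and 0 for the difference between the treatments. In all, 173 values under alternatives stayed within 1.5 times of the reported count and 49 did not. This tally includes the numbers of members kept, which all stayed within that limit. It also includes the difference between the treatments, where nearly every count was 0 beside 0, so it overstates how steady the root calls were.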
